A study of Gallus gallus and Dromaius novaehollandiae with 14 samples.

Results

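The claw and the feather were compared as embryonic epidermis in 2 birds, the chicken and the emu, using the 7 of 14 libraries in the series that came from these appendages. The libraries were taken by the species and appendage in their labels. They comprised 2 chicken claw, 2 chicken feather, 2 emu feather and 1 emu claw library. Claw epidermis was taken at Hamburger and Hamilton stage 36 and feather epidermis at stages 33 to 34 in both species, so the appendage and the stage cannot be told apart. Chicken eggs were kept at 37.8 °C and emu eggs at 35.5 °C. All samples were skin placode tracts freed of dermis by 13 h in the protease dispase (10 mg/mL, 4 °C), and no group carried a mutation or other treatment. The other 7 libraries, from scutate scale at stage 37 and reticulate scale at stage 39, served only to place the claw and feather genes.

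Feathers, scales and claws all start in the embryonic epidermis, where signals between the epidermis and the dermis set local thickenings called placodes. A feather placode goes on to form a bud and then a hollow, branching filament. The claw forms as a hard cornified sheath over the end of the toe. The cells of each make large amounts of structural proteins, among them alpha-keratins and the corneous beta-proteins of reptiles and birds. None of the Ensembl chicken gene IDs in the data is paired with a gene name in the sources used here. The genes are therefore described in groups, with a few IDs given as examples, and epidermal or other cell type markers could not be checked.

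Values are TPM, a transcript's share of a library corrected for transcript length, obtained by squaring the deposited numbers and rescaled so that the median gene is level across libraries. The read depth behind them is unknown, since TPM does not keep it. Before rescaling, the listed genes summed to 500783 and 521547 TPM in the chicken claw libraries, 539494 and 575133 in the chicken feather libraries and 550000 in each emu library. Chicken claw had scaling factors of 0.741 and 0.820, and the other 5 libraries had factors of 1.00 to 1.12. The chicken claw replicates were also the least alike. Their log2 values correlated at r = 0.953 across genes, and 697 of the 7403 tested genes (9.42%) were at least 2-fold apart between them. The same count was 57 genes (0.770%) for chicken feather and 56 (0.756%) for emu feather, both with r above 0.99. Nothing in the labels says that replicates came from separate embryos, so the p-values measure the spread between these libraries.

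Claw and feather epidermis were first compared over both birds together, by a test that does not require a difference in each bird. With the species as a block, 1259 of 7403 tested genes (17%) differed between claw and feather at an adjusted p under 0.05 by limma, which is the meaning of "called" throughout. Of these, 664 were higher in claw (8.97% of the genes tested) and 595 were lower (8.04%). A log2 difference of at least 1, a 2-fold change, was reached by 324 of the higher and 309 of the lower genes. At 8-fold or more, 49 were higher and 25 lower in claw. The count of calls depended on single libraries. It was 417 and 424 without chicken feather replicate 1 or 2, and 610 and 657 without emu feather replicate 1 or 2. Without the emu claw library it was 2611, since the estimate then rests on chicken alone. The direction depended on the scaling, with 52.7% of calls higher in claw after rescaling, 19.3% without it and 24.1% with every library at a common total. Without rescaling, the median gene was itself 0.29 lower in claw on the log2 scale (a shift of -0.29), so all differences here are relative to the median gene. In bulk epidermis, fewer cells of a type and less RNA per cell cannot be told apart.

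Genes differing the same way in both birds were then counted by a stricter rule, which required a call in the block test and a 2-fold difference or more of the same sign within each species. This rule was met by 410 genes (5.54% of those tested), with 228 higher in claw (3.08%) and 182 lower in claw (2.46%). The count ranged from 290 to 457 when any 1 chicken or emu feather library or chicken claw library was left out. Between 283 and 369 of the 410 genes were then found again. The median log2 difference of the 228 genes was 1.96 in chicken and 1.73 in emu, and that of the 182 genes was -1.90 in chicken and -1.83 in emu. These sizes follow in part from the 2-fold rule. The difference was larger in emu for 92 of the 228 and 89 of the 182, against 3230 of all 7403 tested genes by size alone. The test of an unequal difference between the species called 40 of the 228 (17.5%) and 24 of the 182 (13.2%), both near the 15.1% of all genes tested. The rule required a block call and the same sign in each species, which itself shapes these 2 shares. The chicken claw replicates were at least 2-fold apart for 48 of the 228 and 39 of the 182 genes. These shares of 21.1% and 21.4% compare with 9.42% of all genes tested. Without rescaling, the rule gave 173 higher and 296 lower, or 36.9% higher in claw, against 55.6% with it, and with a common total 40.1%.

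**Figure D1:**
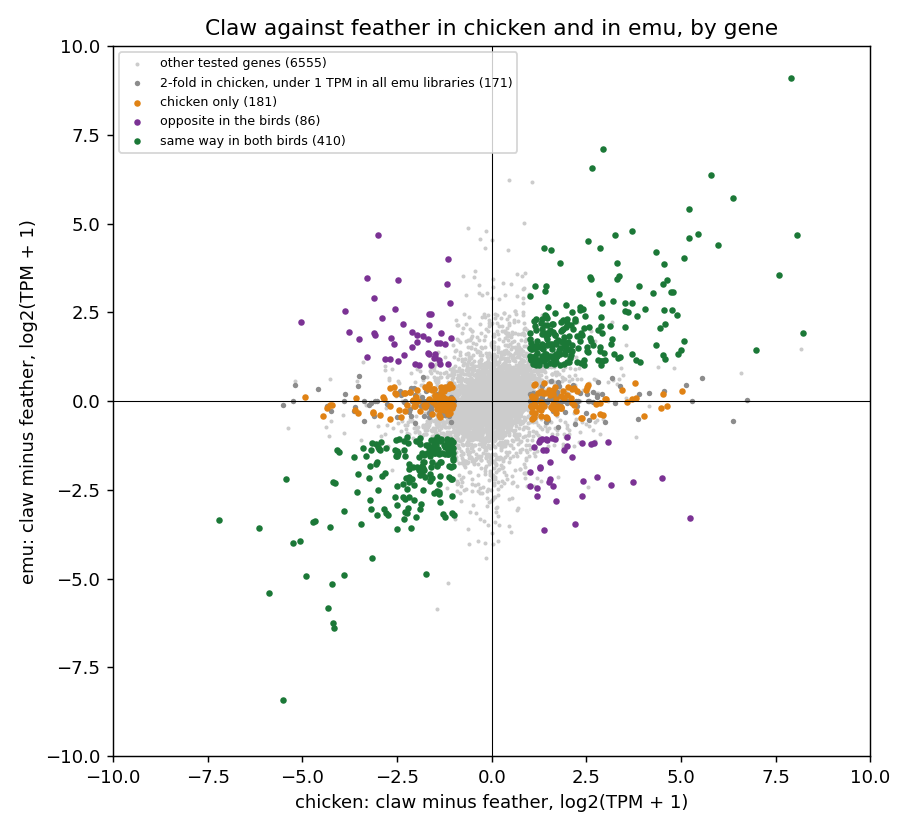
Each point is 1 of the 7403 tested genes, with the claw minus feather difference in log2(TPM + 1) in chicken on the x axis and in emu on the y axis. The 410 genes in green differ at least 2-fold the same way in both birds, the 181 in orange differ in chicken with an emu difference under 0.5, and the 86 in purple have opposite signs. The emu axis rests on 1 claw library.

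The largest differences shared by both birds show how far apart the appendages were. These examples were chosen to have no overlap of claw and feather libraries in either bird. Of all 7403 tested genes, 2974 (40.2%) had no overlap in both birds in the same direction. ENSGALG00000010923 had a TPM of 2.10 and 1.90 in chicken feather and of 851 and 597 in chicken claw. In emu it was 0.80 and 0.827 in feather and 986 in claw. Every claw library was thus above every feather library by more than 2 orders of magnitude, and the scales lay between, at 22.4 to 231 in chicken and 37.9 to 98.5 in emu. With the species block, claw minus feather came to 8.37 log2 units (SE 0.27, limma adjusted p = 8.22e-05). ENSGALG00000019430 was at 0.202 and 0.11 in chicken feather and at 114 and 841 in chicken claw. Its emu values were 0.0796 and 0.0823 in feather and 26.4 in claw. Its chicken claw replicates were far apart. Its log2 difference was 6.71 (SE 0.92, limma adjusted p = 0.00634), a size that the pseudocount of 1 limits because the feather values are near 0.

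In the other direction, ENSGALG00000016584 had a TPM of 949 and 874 in chicken feather and of 3.89 and 82 in chicken claw. In emu it was 772 and 743 in feather and 1.21 in claw. The feather libraries of both species were close to each other and all claw libraries were lower, with chicken claw replicate 2 the highest of them. The emu scales lay between, at 13.6 to 238, and the chicken scales were at 32.4 to 504, with reticulate scale replicate 1 below chicken claw replicate 2. With the species block, claw minus feather came to -6.67 log2 units (SE 1.05, limma adjusted p = 0.0103). ENSGALG00000014908 was at 76.7 and 103.3 in chicken feather, and in chicken claw it was listed at 0 in replicate 1 and at 1.36 in replicate 2. In emu it was 67.8 and 74 in feather and 0.689 in claw. Its log2 difference was -5.69 (SE 0.32, limma adjusted p = 0.00055).

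**Figure D2:**
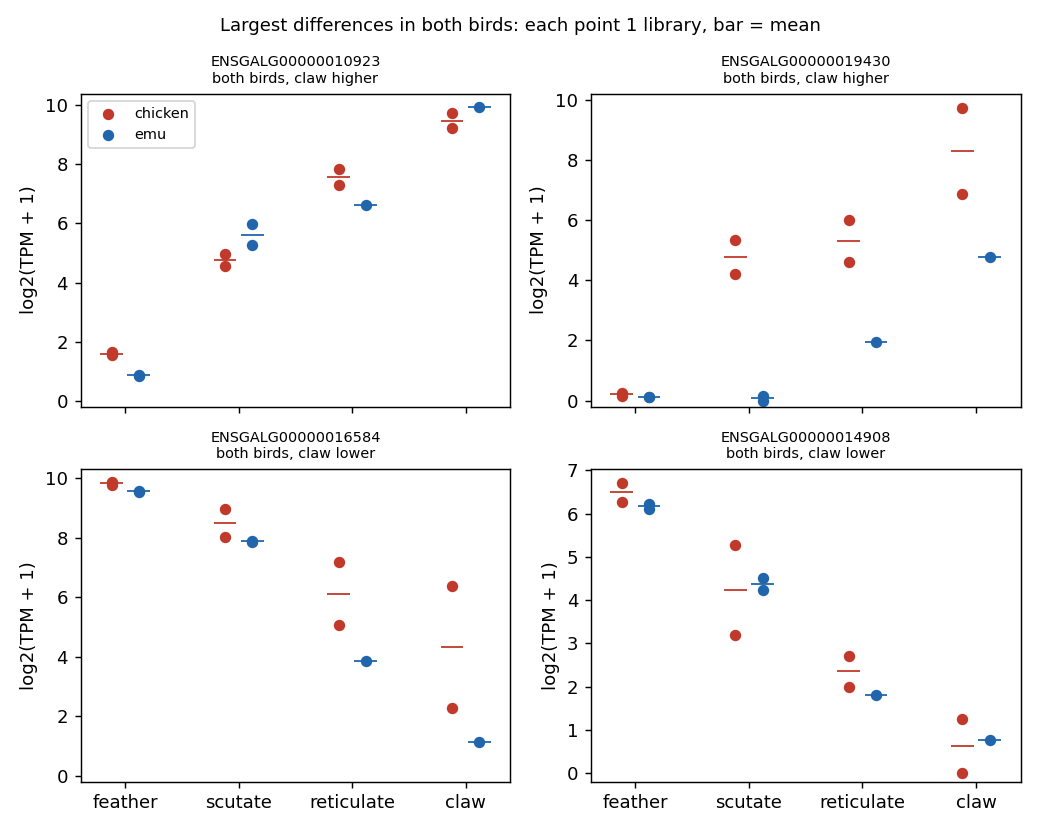
Levels of the 4 genes with the largest shared differences, as log2(TPM + 1) by appendage, in chicken (red) and emu (blue), with each point a library and each bar a group mean. Claw and feather libraries stand apart in both birds for all 4 by the rule that chose them. For ENSGALG00000010923, ENSGALG00000016584 and ENSGALG00000014908 the scale means lie between claw and feather in both birds.

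Near on-off genes were rare in both birds together, among the 7403 genes tested. A single gene had a TPM of at least 10 in all claw libraries and under 1 in all feather libraries of both species, and 3 genes had the reverse pattern. Within chicken the counts were 31 and 25, and within emu they were 14 and 23. The pattern must hold in more libraries for both birds together than within a species, which itself lowers that count.

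Genes called in chicken were then followed in emu. The emu claw minus feather difference was not used to choose them, but the emu feather libraries entered the shared spread and the emu libraries the filter on low values. In chicken, 2611 genes (35.3%) were called between claw and feather, with 1292 higher (17.5%) and 1319 lower (17.8%) in claw. Without rescaling, 17.8% of the calls were higher in claw, and with a common total 24.5%, against 49.5% after rescaling. The count was 898 and 905 without chicken feather replicate 1 or 2, and 1644 and 1647 without emu feather replicate 1 or 2, which enter only through the shared spread. Without chicken claw replicate 2 it was 3974, the spread then coming from the feather libraries alone. Library weights, with 1 weight for both chicken claw libraries and another shared by all other libraries, gave 1740. Genes count as measured in emu if they reached 1 TPM in at least 1 of the 3 emu libraries. Of the 2389 chicken calls measured in emu, 1723 (72.1%) had the same sign there, against 62.2% of all 6912 genes measured in emu. The emu claw library lay beyond both emu feather libraries in the chicken direction for 1624 of the 2389 (68.0%), against 56.8% of all genes measured. The 1652 calls of a fit of the 4 chicken libraries alone, made after seeing the data and with the same filter, gave nearly the same shares. Of the 1468 of them measured in emu, 72.8% had the same sign there and 68.9% had the emu claw library beyond both feather libraries. Close shares are favoured, since 1629 of the 1652 calls were also among the 2611 and the emu values were the same.

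The larger the chicken difference, the more often emu showed a change of 2-fold or more the same way. The share was 6.44% of 1304 calls under a log2 difference of 1, 28.4% of 716 calls between 1 and 2, 44.1% of 222 calls between 2 and 3 and 63.3% of 147 calls at 3 or more. Over all 6912 genes measured in emu, called or not, it was 12.5%. The share of the same sign was nearly level at 72.2%, 70.4% and 69.8% in the first 3 classes and 83.0% in the last. In that last class the median log2 difference of the 77 genes higher in chicken claw was 4.05 in chicken and 1.68 in emu. For the 70 genes lower in claw it was -3.88 in chicken and -1.34 in emu. The emu difference was thus in the median under the chicken difference in genes chosen for being large in chicken, a choice that itself favours the chicken value.

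**Figure D3:**
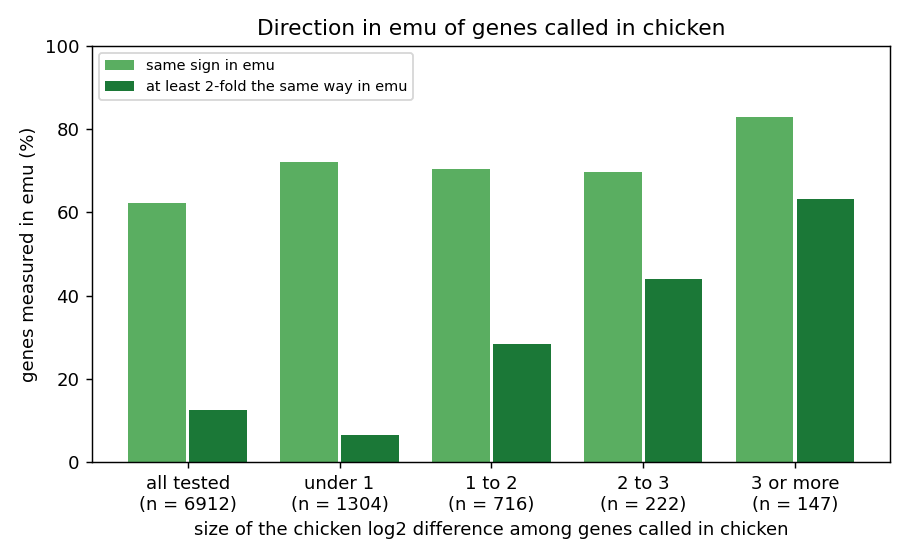
Share of genes, in percent, whose claw minus feather difference in emu has the same sign as in chicken (light) or is also at least 2-fold the same way (dark), by the size of the log2 difference among genes called in chicken, and for all genes measured in emu. The dark bars go from 6.44% to 63.3% with the chicken difference, and the light bars from 72.2% to 83.0%. Over all genes measured in emu the dark bar is at 12.5% and the light bar at 62.2%.

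The converse could be described without a test in emu, which had 1 claw library. There 1238 genes (16.7%) were at least 2-fold apart between the claw library and the feather mean, with 634 higher (8.56%) and 604 lower (8.16%) in claw. Of the 1132 that reached 1 TPM in a chicken claw or feather library, 819 (72.3%) had the same sign in chicken and 476 (42.0%) were also called there in that direction. Among all 7125 tested genes that reached 1 TPM there, the shares were 61.3% and 25.4%, and 35.3% of all tested genes were called in chicken in either direction. At 8-fold or more in emu, 96 of 119 (80.7%) had the same sign in chicken and 73 (61.3%) were called the same way.

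The 228 genes higher in claw in both birds made up 1.24% of the listed TPM in both chicken feather libraries, and 4.84% and 6.10% in the chicken claw libraries. In emu the share was 1.87% and 1.90% in feather and 7.71% in claw. Their median TPM was 6.46 and 6.48 in chicken feather, 40.9 and 53.9 in chicken claw, 8.94 and 9.53 in emu feather and 49.1 in emu claw. The claw and feather values are a description, since they chose the genes. The scale libraries were not used in that choice. There the median was 9.08 and 14.6 for chicken scutate scale, 22.5 and 19.7 for chicken reticulate scale, and the emu values were 14.7 and 14.9 for scutate and 16.4 for reticulate scale. All scale libraries were thus between feather and claw, and in chicken both reticulate scale libraries were above both scutate scale libraries.

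The 182 genes lower in claw in both birds had a median TPM of 21.9 and 22.3 in chicken feather and 2.79 and 3.99 in chicken claw. In emu it was 19.7 in both feather libraries and 2.97 in claw. Chicken scutate scale had medians of 12.6 and 9.50 and reticulate scale 9.64 and 11.8, so the scales overlapped. The emu scales were at 13.0, 13.1 and 13.7. These genes made up 2.17% and 2.19% of the listed TPM in chicken feather against 0.416% and 0.434% in chicken claw, and 2.43% and 2.66% in emu feather against 0.391% in emu claw.

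**Figure D4:**
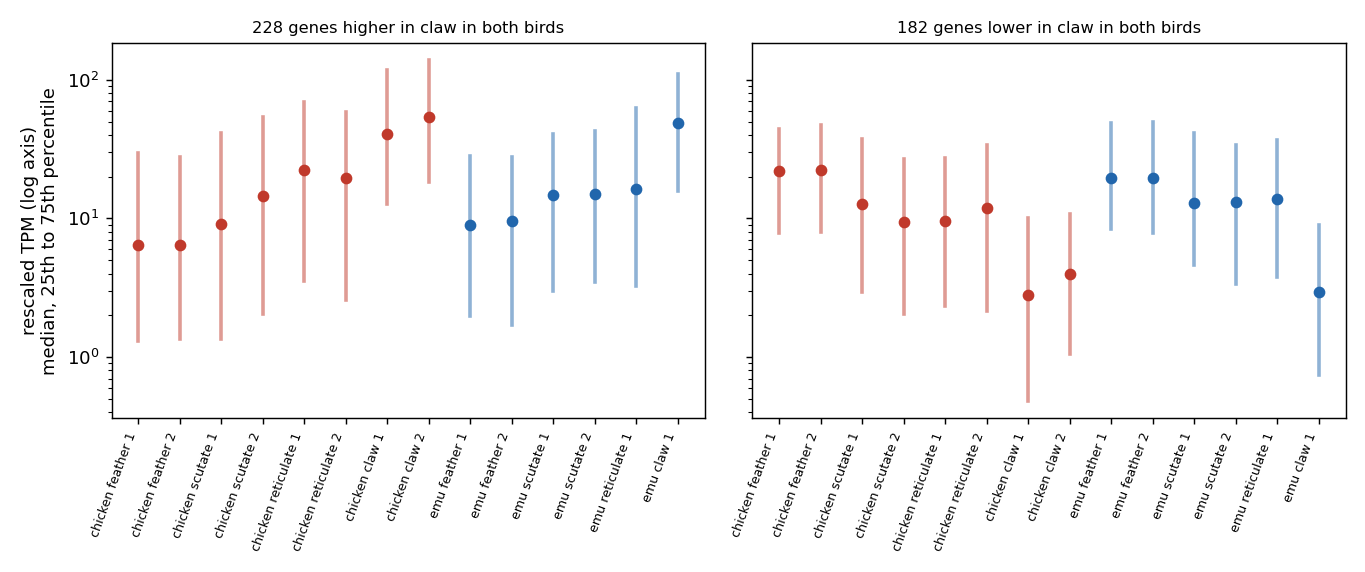
Rescaled TPM on a log axis in each of the 14 libraries for the 228 genes higher and the 182 genes lower in claw in both birds, with points for medians and lines from the 25th to the 75th percentile (chicken red, emu blue). The medians of the scale libraries, which were not used to choose the genes, lie between feather and claw in both panels.

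Gene by gene, each scale was placed on an axis from the feather mean at 0 to the claw mean at 1 of its own species. For the 228 genes higher in claw, the median position of scutate scale was 0.16 in chicken and 0.17 in emu, and 39 (17.1%) and 37 (16.2%) of the genes were nearer to claw than to feather. For reticulate scale the median position was 0.39 in chicken and 0.34 in emu, with 96 (42.1%) and 88 (38.6%) nearer to claw. For the 182 genes lower in claw, scutate scale lay at 0.37 in chicken and 0.17 in emu, and reticulate scale at 0.44 and 0.27. Single genes often lay outside the ends. Among the 228, scutate scale was beyond feather for 66 in chicken and 55 in emu, and beyond claw for 6 and 9. For reticulate scale these counts were 38 and 52, and 29 and 17. Among the 182 they were 40 and 53, and 28 and 6, for scutate scale. For reticulate scale they were 32 and 55, and 29 and 10. A position between the ends is favoured by choosing genes for a wide gap between claw and feather, and the reticulate scale in emu is 1 library. Claw was the highest of the 4 appendages in both birds for 180 of the 228 genes, and feather was the lowest of the 4 in both for 117. Claw was the lowest of the 4 in both birds for 130 of the 182 genes, and feather was the highest in both for 82. Choosing genes for a wide gap between claw and feather favours these counts too. No share over all tested genes was computed for them or for the counts of genes nearer to claw.

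A second group of genes differed in chicken with little difference between the emu libraries. The test of the difference itself, the interaction of species and appendage, called 1119 genes (15.1%). For 539 of them (7.28%) the claw minus feather difference was higher in chicken than in emu, and for 580 (7.83%) it was lower. Without rescaling 28.4% of these calls were higher in chicken, and with a common total 37.6%, against 48.2%. The lone emu claw library was taken to vary like the other groups. The interaction count was 186 and 167 without chicken feather replicate 1 or 2, 212 and 189 without emu feather replicate 1 or 2, and 2724 and 2990 without chicken claw replicate 1 or 2.

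Genes were counted as differing in chicken only if they were called in chicken at 2-fold or more, called in the interaction, under 0.5 in log2 difference in emu and measured in emu. There were 181 (2.44%), with 84 higher in chicken claw (1.13%) and 97 lower (1.31%). The count was 22 and 21 without chicken feather replicate 1 or 2, 24 and 23 without emu feather replicate 1 or 2, and 382 and 422 without chicken claw replicate 1 or 2. The size of this group is therefore set largely by which libraries give the spread. Without rescaling it held 289 genes, 14.2% of them higher in claw, and with a common total 23.6% were higher, against 46.4%. The 84 genes had median TPM of 5.86 and 6.26 in chicken feather and 29.5 and 31.8 in chicken claw, while in emu they were at 20 and 22.3 in feather and 20.9 in claw. The emu level thus lay between the chicken levels. It was also near the emu median of all tested genes, at 21.6 and 21.3 in feather and 22.3 in claw. The 97 genes had medians of 25 and 24.5 in chicken feather, 6.21 and 6.34 in chicken claw, 18.1 and 15.7 in emu feather and 17.9 in emu claw. These claw and feather medians are a description, since the same values chose the genes and the rule held the emu difference small. In the chicken scales, which were not used to choose the genes, the 84 had scutate medians of 9.52 and 10.8 and reticulate medians of 14.7 and 15.4. For the 97 the scutate medians were 24.4 and 16.9, and the reticulate medians 13.3 and 15.4. The limit of 0.5 does not make the emu difference 0. Emu claw lay beyond both emu feather libraries in the chicken direction for 32 of the 84 and 37 of the 97 (38.1% each). The share was 56.8% over all genes measured in emu, and the rule itself lowers it here. The block test called 12 of the 84 and 11 of the 97, against 17% of all genes tested. A rule that asks for unequal differences in the species itself bears on these block calls. Chicken claw replicates were at least 2-fold apart for 1.19% of the 84 and 5.15% of the 97, against 9.42% of all genes tested. Both required calls favour genes with a small spread between replicates, which itself lowers these 2 shares.

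The examples of chicken-only genes have the largest chicken differences without overlap of claw and feather. ENSGALG00000012420 was at 9.30 and 10.0 TPM in chicken feather and 186 and 646 in chicken claw, but at 68.6 and 48.3 in emu feather and 70.3 in emu claw. It was also high in chicken reticulate scale, at 631 and 357. Its log2 difference in chicken was 5.03 (SE 0.58, limma adjusted p = 0.00294). ENSGALG00000010770 was at 1.25 and 1.36 in chicken feather and 44.4 and 71.2 in chicken claw, with 27.2 and 26.8 in emu feather and 24.5 in emu claw. In the chicken scales it was at 0.234 to 3.05, so claw stood apart from the other chicken libraries, and its log2 difference was 4.63 (SE 0.24, limma adjusted p = 0.000408).

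Among genes lower in chicken claw only, ENSGALG00000005892 was at 64.8 and 60.2 TPM in chicken feather and 0.306 and 2.34 in chicken claw. In emu it was 7.81 and 8.96 in feather and 9.22 in claw. Its log2 difference in chicken was -4.92 (SE 0.44, limma adjusted p = 0.00146). It was also low in chicken reticulate scale, at 1.99 and 3, and not in scutate scale, at 75 and 41.6. ENSGALG00000006567 was at 136 and 134 in chicken feather and 2.49 and 9.88 in chicken claw, against 42.3 and 42.4 in emu feather and 31.7 in emu claw. Its log2 difference in chicken was -4.46 (SE 0.51, limma adjusted p = 0.00294).

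**Figure D5:**
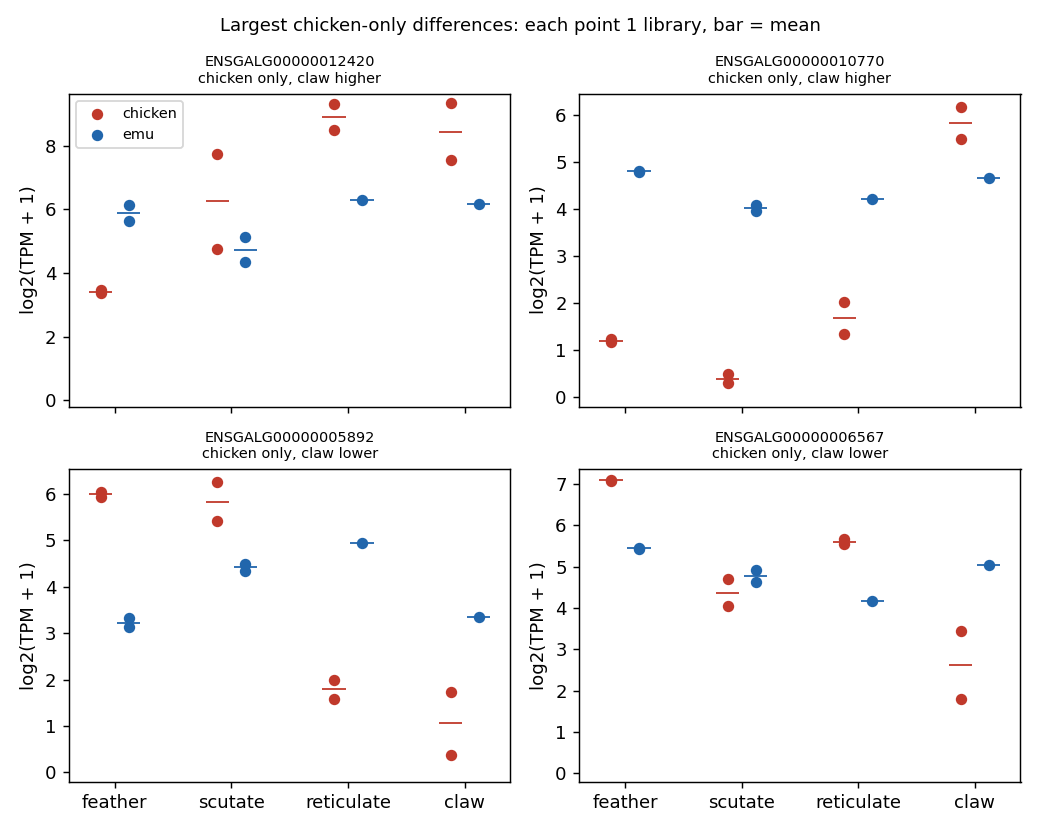
Levels of the 4 genes with the largest chicken-only differences, as log2(TPM + 1) by appendage, in chicken (red) and emu (blue), with each point a library and each bar a group mean. The rule that chose these genes set the chicken claw and feather libraries apart and held the emu log2 difference under 0.5.

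A further 171 genes (2.31%) were called in chicken at 2-fold or more but were under 1 TPM in all 3 emu libraries, so a 2-fold difference could not have been seen there. Of these, 76 were higher (1.03%) and 95 lower (1.28%) in chicken claw, and 37 of the 171 were listed at 0 in all 3 emu libraries. Among all 491 tested genes under 1 TPM in those 3 libraries, 158 were listed at 0. Whether the 171 genes are not expressed in emu skin or not matched to emu transcripts was not tested. Their levels in chicken were modest, with a median TPM of 0.491 and 0.551 in feather against 6.96 and 7.65 in claw for the 76. The 95 genes had medians of 6.82 and 6.54 in feather and 0.450 and 0.711 in claw. With emu under 1 TPM, the 171 genes passed the filter through chicken libraries alone. Their chicken claw and feather medians are a description, since the same values chose the genes.

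In all, 1256 genes were called in chicken at 2-fold or more. Of these, 389 met the rule for the same way in both birds, 181 were chicken only, 171 were under 1 TPM in emu and 76 were at least 2-fold apart in the opposite direction in emu, with a called interaction. Over all tested genes the last pattern was met by 86 (1.16%), with 38 higher (0.513%) and 48 lower (0.648%) in chicken claw. The remaining 439 met none of these rules. Of the 439, 308 had the same sign in emu and 107 were called in the interaction. Over all genes measured in emu 62.2% had the same sign, and 15.1% of all genes tested were called in the interaction. The 439 were left by rules that use the emu sign and the interaction, which itself shapes their counts.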

How the data were processed

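RNA sequencing of polyadenylated RNA was summarised by the authors in a deposited table of 8751 genes under Ensembl chicken IDs. The submitters' processing notes name CASAVA, TopHat2 2.0.6 and HTSeq 0.5.3p9. Genome builds and the assignment of emu reads to chicken IDs are not given in the sources used here. No header states the unit of the deposited scores. Square-rooted TPM is inferred, because the squares sum to 550000 in every emu library.

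The scores were squared and divided by median-ratio factors over 6797 genes above 0 in all 14 libraries, and analysed as log2(TPM + 1), which understates changes of low genes. Genes with TPM of at least 1 in at least 2 of the 7 libraries were tested. Linear models were fitted in R 4.3.3 with limma 3.58.1, whose eBayes step used an intensity trend and whose p-values were adjusted by Benjamini-Hochberg over the 7403 genes. They held species and appendage, with 4 residual degrees of freedom, or the 4 group means, with 3. The code was checked on simulated data. Figures used matplotlib 3.10.9.

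Named IDs are the 2 largest differences in each direction per group of genes, without overlap of claw and feather (in both birds, or in chicken for chicken-only genes) and with at least 10 TPM. The opposite group has the 2 largest interactions in each direction, with no other filter. Of the tested IDs, 0 could be matched to a symbol, so the planned gene lists were not used. The libraries, groups and rules were chosen with earlier results of these data known. Alternatives covered scaling, pseudocount, filter, trend, library weights, all 14 libraries, a 2-fold threshold, replicate block and leaving out each library.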

Additional observations from a re-analysis of the deposited data

Results flagged for a closer look

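By the limma interaction term, 1119 genes had a claw minus feather difference that was unequal between the species, and 86 of them (1.16% of the genes tested) were at least 2-fold apart in opposite directions. Of the 86, 38 were higher (0.513%) and 48 lower (0.648%) in chicken claw. The 38 had median TPM of 1.95 and 2.17 in chicken feather, 13.7 and 16.2 in chicken claw, 10.6 and 10.0 in emu feather and 2.95 in emu claw. The 48 had medians of 18.7 and 22.0 in chicken feather, 2.48 and 3.10 in chicken claw, 4.68 and 3.66 in emu feather and 16.7 in emu claw. These medians describe genes chosen by the same values. Among all 1119, the sign was not the same for 740, a count that takes in any gene with an emu difference of exactly 0. The sign was the same with a larger chicken difference for 231 and the same with a larger emu difference for 148. Choosing genes by a gap between the species favours opposite signs. A further pattern, 2-fold or more in emu and under 0.5 in chicken, was met by 140 genes called in the interaction, 71 of them higher in emu claw.

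ENSGALG00000008444 had the widest gap of the opposite genes higher in chicken claw. Its TPM was 81.0 and 79.0 in chicken feather, 2143 and 4382 in chicken claw, 233 and 303 in emu feather and 26.4 in emu claw, with an interaction of 8.53 on the log2 scale. ENSGALG00000015089 was at 0.182 and 0.132 in chicken feather, 21.2 and 30.3 in chicken claw and 3.03 and 4.02 in emu feather, and was listed at 0 in emu claw, with an interaction of 6.68. In the reverse direction, ENSGALG00000008298 was at 48.5 and 41.1 in chicken feather, 1.81 and 10.7 in chicken claw, 1.47 and 1.44 in emu feather and 62.0 in emu claw, with an interaction of -7.67. Without any 1 feather library it was no longer called, with a limma adjusted p of 0.068 to 0.0824, and over all settings tried that p ranged from 0.000945 to 0.123. The interaction chose these 4 genes, so its size describes them and is no further evidence. ENSGALG00000008509 was at 52.2 and 42.1 in chicken feather, 0.0833 and 0.936 in chicken claw, 2.46 and 2.36 in emu feather and 14.9 in emu claw, with an interaction of -7.27.

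The rule for chicken-only genes required a called interaction, so that of the 4 examples is likewise a description. The interaction was 4.74 for ENSGALG00000012420, 4.77 for ENSGALG00000010770, -5.05 for ENSGALG00000005892 and -4.06 for ENSGALG00000006567. Without any 1 feather library the interaction of ENSGALG00000010770 was still called and those of the other 3 were not. All of these emu differences rest on 1 claw library.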

How the results depend on the processing

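For both birds, 1259 calls became 1920 without rescaling, 2005 with library weights, 3056 in the fit of all 14 libraries and 633 at 2-fold or more, and leaving out a library gave 417 to 2611. For chicken, 2611 became 1740 with library weights, 1256 at 2-fold or more and 1652 in a fit of the 4 chicken libraries, which was added after seeing the data, and leaving out a library gave 898 to 3974. The interaction count of 1119 ranged from 167 to 2990 when a library was left out. The 410 genes differing the same way in both birds ranged from 290 to 457, and the 181 chicken-only genes from 21 to 422, with 289 without rescaling. Nothing in the labels says that libraries with the same replicate number are paired. Deviations of same-numbered chicken claw and feather libraries correlated at 0.0557 across genes. Claw was taken at stage 36 and feather at stages 33 to 34, so a claw and a feather library cannot share an embryo. Emu was not examined by such a correlation, and whether same-numbered libraries shared a batch was not tested. With replicate number as a block, the counts were 252 for both birds, 983 for chicken, 216 the same way, 0 for the interaction in limma (1379 at an unadjusted p under 0.05) and 0 for chicken only, with 1 residual degree of freedom in the group model. No setting run for the named IDs turned the sign of a difference. Of the 8 IDs named as shared or chicken-only, all kept the call of their claw and feather difference, except for ENSGALG00000016584 under the replicate block. The interaction calls of all 8 chicken-only and opposite IDs were lost under that block. Those of ENSGALG00000012420, ENSGALG00000005892, ENSGALG00000006567 and ENSGALG00000008298 were also lost without any 1 feather library. Depth is unknown, and 1 emu claw library limits every emu difference.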
